A study of Rattus norvegicus with 6 samples.

Results

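Synaptic vesicle exocytosis is the fusion of transmitter-filled vesicles with the presynaptic membrane, and the genes described here encode the proteins that dock, prime, trigger and recycle that fusion step in the rat amygdala. They were chosen by symbol, as synaptotagmins, syntaxins and their binding proteins, SNAP-25 and VAMP proteins, complexins, Munc13s, RIMs, synapsins, SV2 proteins, synaptophysin, and NSF with its SNAP adaptors. All 56 listed symbols were found among the 38445 genes counted, and all 56 passed the filter on low counts that left 18141 genes to test. The amygdala came from adult male rats of the strain labelled Sprague Dawley/WT, and the study asked how a single dose of ethanol that lowers anxiety alters transcription there. The Control group received saline and the Ethanol group received 1 g/kg ethanol, both by intraperitoneal injection, and tissue was taken 1 h later. Each group had 6 rats, and each library combined the RNA of 2 rats, which left 3 Control and 3 Ethanol libraries of mRNA. Spread between libraries is therefore spread between pools of animals. A pool cannot show how its animals differed, and the whole amygdala mixes neurons with glia, so that fewer cells of a type and less RNA per cell cannot be told apart.

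In neurons, a syntaxin and SNAP-25 on the plasma membrane and a VAMP on the vesicle zip together into the SNARE complex, which pulls the membranes into contact. RIM and Munc13 proteins hold and prime vesicles at the release site, complexins clamp the partly zipped complex, and calcium-binding synaptotagmins release the clamp when calcium enters. NSF and the SNAP adaptors then pull spent SNARE complexes apart, while synapsins hold reserve vesicles together. In the amygdala, both the glutamatergic neurons of its cortex-like nuclei and the GABA neurons of its striatum-like nuclei release transmitter through this machinery.

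The libraries held 62576504 to 70755739 reads assigned to genes. Before scaling between libraries, 3 counts in a library corresponded to 0.0424 to 0.0479 counts per 1000000 assigned reads (CPM). The CPM levels below were scaled between libraries by the trimmed mean of M-values (TMM). Marker genes fixed for each cell type, 4 or 5 for each, were above 0 in every library. The summed level of the glutamatergic markers Slc17a7, Neurod6, Neurod2 and Tbr1 was 475.6 to 875.3 CPM in the Control libraries and 479.5 to 1003.1 CPM in the Ethanol libraries, and that of the markers of striatal-type GABA neurons was 621.3 to 808.2 and 638.0 to 720.6 CPM. The summed RNA levels of markers of neighbouring tissue and of glia differed between libraries. Choroid plexus markers summed to 499.2 to 1080.3 CPM in the Control libraries, to 10.7 and 11.4 CPM in Ethanol 1 and 2, and to 461.4 CPM in Ethanol 3. Ethanol 3 also had the highest sums of oligodendrocyte markers, at 9222.3 CPM against 3278.0 to 7936.4 in the other libraries, of astrocyte markers, at 5034.1 against 3713.8 to 4450.7, and of hypothalamic markers, at 314.6 against 9.47 to 107.6. Because Ethanol 3 stood apart in this way, counts are given below with and without it.

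Per kilobase of exon, the mean levels of the exocytosis genes over the 6 libraries ran from 0.812 to 851.1 CPM. The highest was Snap25, the plasma membrane SNARE that gives the family its name, with a level of 814.8 ± 34.3 CPM per kilobase in the Control libraries and 887.4 ± 130.6 in the Ethanol libraries (mean ± SD, n = 3 each, as for all levels below). Syp, the vesicle membrane protein synaptophysin, followed at 606.8 ± 62 and 657.0 ± 95.2, and Vamp2, the main vesicle SNARE of forebrain, at 385.5 ± 15.8 and 408.1 ± 21.6. These 3 levels were separated by more than their spread. The next 3 were not. Syt11, a synaptotagmin that does not bind calcium, had a level of 250.5 ± 15.1 in Control, Syt1, the calcium sensor of fast release, 245.3 ± 28, and Nsf, the ATPase that takes SNARE complexes apart, 237.1 ± 23.5. At the other end were Syt6 at 3.59 ± 0.405, Syt2, the fast calcium sensor of hindbrain and some interneurons, at 2.48 ± 1.57, Stxbp2, a Munc18 protein best known from immune cells and epithelia, at 2.46 ± 0.181, and Cplx3, a complexin best known from retinal ribbon synapses, at 0.707 ± 0.0857. The level of Vamp8 per kilobase rests on an annotated exon length of 301 bases and is less certain than the others for that reason.

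**Figure D1:**
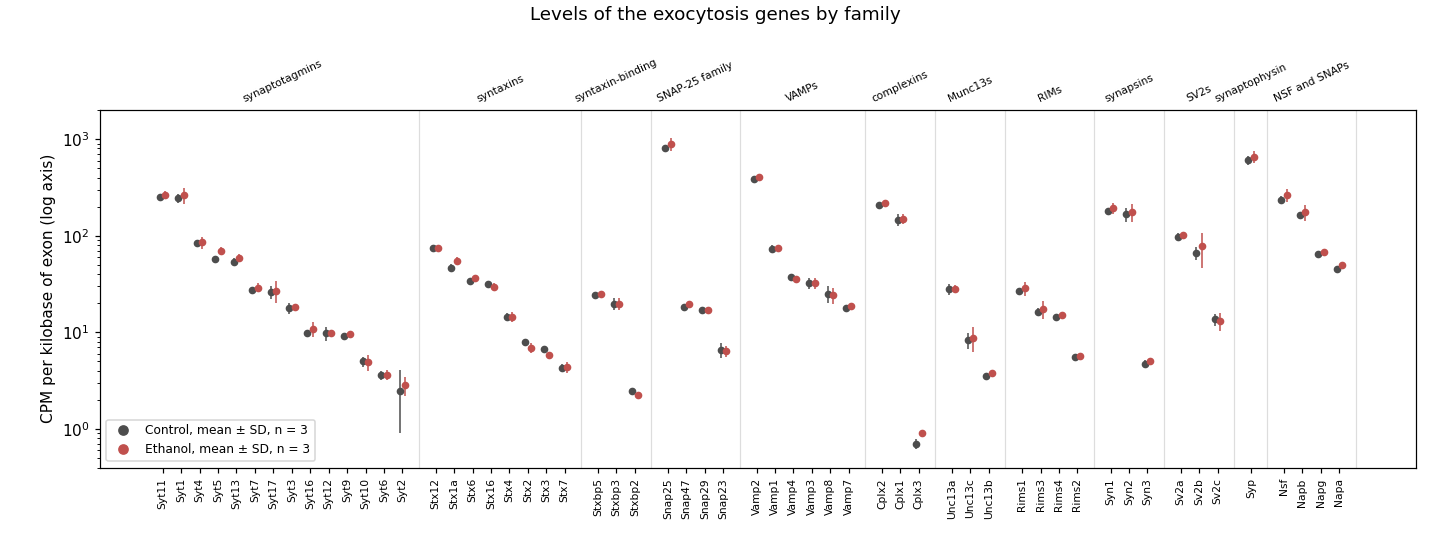
Level of each of the 56 exocytosis genes in CPM per kilobase of exon, on a log axis, with genes grouped by family and ordered within it. Points are means and bars SD of 3 libraries, in grey for Control and red for Ethanol. In most families 1 or 2 genes stand well above the rest, and for most genes the Control and Ethanol bars overlap.

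Within families, 1 or 2 genes carried most of the transcript. Snap25 made up 94.6 to 95.7% of the counts per kilobase of its family over the 6 libraries, with Snap47, Snap29 and Snap23 at 2.34% or less each. Vamp2 made up 66 to 70.7% of the VAMP family, ahead of Vamp1 at 11.4 to 14%. Among 14 synaptotagmins, Syt11 took 30.3 to 32.6% and Syt1 28 to 31.9%, and the next was Syt4 at 9.38 to 11.1%. Cplx2 (55.9 to 61.7%) and Cplx1 (38 to 43.9%) shared the complexin transcripts almost completely. Syn1 (49.5 to 54%) and Syn2 (44.4 to 49.3%) did the same for the synapsins. Unc13a, which encodes Munc13-1, the priming factor of most forebrain synapses, made up 63 to 75.5% of the Munc13 transcripts. The leading syntaxin per kilobase was the endosomal Stx12, at 31.8 to 34.8%, ahead of the plasma membrane syntaxin Stx1a at 19.4 to 25.1%. Sv2a, the vesicle protein that binds levetiracetam, led the SV2 family at 48.9 to 62.1%, and Sv2b varied most among the libraries, from 28.2 to 46.6%.

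The comparison of Ethanol with Control asked which of these transcripts differed 1 h after the injection. No exocytosis gene passed the study's threshold of an adjusted p below 0.2 in edgeR's quasi-likelihood test, where p-values were adjusted by the Benjamini-Hochberg method over all genes tested and the members' adjusted p was 1 throughout. The same held of all 18141 genes, of which 0% passed and whose smallest adjusted p was 0.818. DESeq2, limma-voom and edgeR's likelihood ratio test also put no exocytosis gene past that threshold, although DESeq2 called 75 and the likelihood ratio test 77 of all genes. The study's own RNA-seq analysis called genes at this threshold and listed Syt5 among the increased ones, a call not reproduced here. The reason for that difference was not tested. Without adjustment, 3 exocytosis genes were higher after ethanol at a p below 0.05 (5.36% of 56, against 1.57% of all genes tested) and 1 was lower (1.79%, against 2.57%). The 3 were Syt5, Stx1a and Cplx3, and the 1 was Stx3. The share of higher genes was above the background and that of lower genes below it, each by a few genes at most.

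Across the list the differences were small. The fitted log2 fold changes ran from −0.21 to 0.38, with a median SE of 0.10, and 36 of 56 lay within 0.1 of 0 (64.3%, against 61.7% of all genes). The median was 0.062, beside 0.006 over all genes tested, and without Ethanol 2 it was 0.018, beside 0.003. Of the 56, 44 were above 0 (78.6%, against 52.6% of all genes), a count that fell to 32 when libraries were scaled by their total alone. That scaling moved the median of all genes to −0.020 and that of the 56 to 0.034. The distance between the 2 medians was 0.054 there and 0.055 with TMM scaling. Groups that did not overlap at all are another description of size. All 3 Ethanol libraries lay above all 3 Control libraries for 4 exocytosis genes (7.14%, against 3.66% of all genes), namely Syt5, Stx1a, Cplx3 and Stx6, and below them for 3 (5.36%, against 5.19%), namely Stx3, Stx2 and Stxbp2. An exact 2-sided permutation test of 3 libraries against 3 cannot go below p = 0.1, which is the value for each of these 7 genes. Groups without overlap always give that value, so it adds nothing to the choice of these genes.

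**Figure D2:**
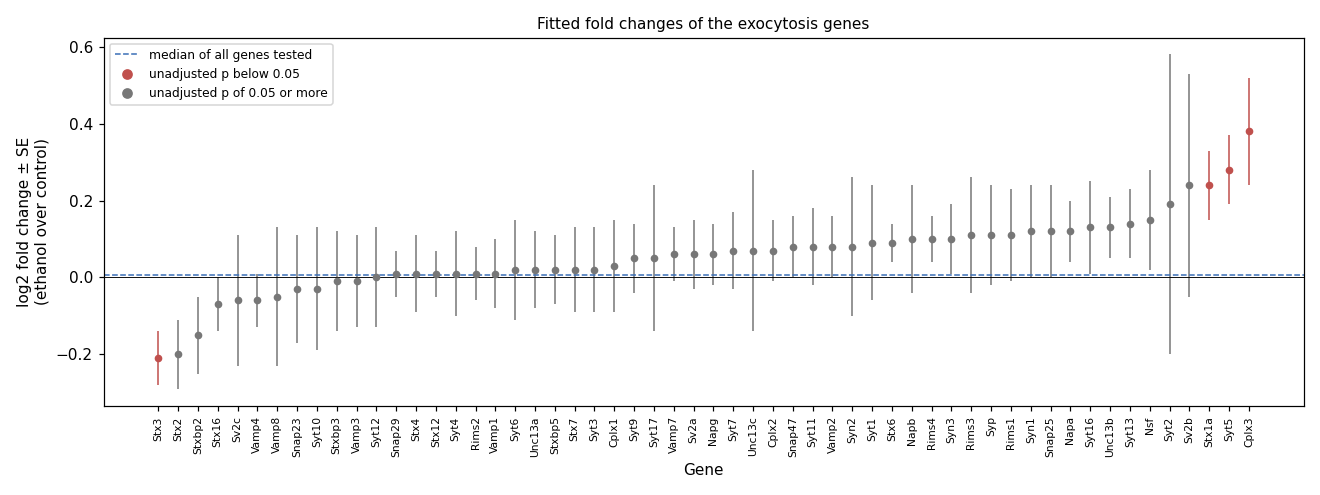
Fitted log2 fold change of Ethanol over Control for each exocytosis gene, ordered by size, with bars of 1 SE from edgeR on 3 libraries a group. Red marks the 4 genes with an unadjusted p below 0.05, and the dashed line is the median of all genes tested, at 0.006. Most points lie a little above 0 with bars that reach it, and Sv2b and Syt2 have the widest bars.

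Syt5 encodes a calcium-binding synaptotagmin of synaptic and dense-core vesicles (NCBI gene 54309, chr1:72859806-72867934 on the + strand of Rnor_6.0, 2744 exon bases). Its level was 156.3, 168.4 and 144.4 CPM in Control 1 to 3 and 193.6, 206.0 and 171.0 CPM in Ethanol 1 to 3. Each Ethanol library was above each Control library, with Ethanol 3 only just above Control 2. The means were 156.4 ± 12 and 190.2 ± 17.8 CPM, and edgeR's quasi-likelihood test gave a log2 fold change of 0.28 (SE 0.09, unadjusted p = 0.0144, adjusted p = 1). That unadjusted p was 0.0534 without Ethanol 2 and 0.0603 without Control 3, with log2 fold changes of 0.22 and 0.23. The study named Syt5 among increased genes from its own RNA-seq analysis, which called genes at a false discovery rate below 0.2. It also reported a similar change by quantitative RT-PCR. Because a gene's share of its own family does not depend on how libraries are scaled, the share was also compared. Syt5 made up 7.29, 7.06 and 6.94% of synaptotagmin counts per kilobase in Control and 7.9, 7.99 and 8.46% in Ethanol, a difference of 1.02 percentage points with no overlap. Here Ethanol 3 had the highest share of the 6 libraries, whereas on the CPM scale it was the lowest of the Ethanol libraries. The exact permutation p was 0.1, the smallest possible, and 1 after Benjamini-Hochberg adjustment over the 55 shares computed in 11 families. Among those 55 shares, the groups did not overlap for 3 that were higher in Ethanol, those of Syt5, Stx1a and Cplx3. They also did not overlap for 2 that were lower, those of Stx3 and Stx2. The 6 libraries can be labelled in only 20 ways, so random labels would also separate some of 55 shares. Separation of a share is therefore not evidence of a difference by itself. A stretch of 111 exon bases of Syt5 faces an uncharacterised gene on the opposite strand, and the counting used strand.

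Stx1a encodes the plasma membrane syntaxin that pairs with SNAP-25 and VAMP in transmitter release (NCBI gene 116470, chr12:24682050-24710002 on the − strand of Rnor_6.0, 2131 exon bases). Its level was 90, 104.0 and 104.8 CPM in Control 1 to 3 and 123.9, 122.6 and 106.3 CPM in Ethanol 1 to 3. The groups did not overlap, but Ethanol 3 lay close to Control 2 and 3, far below Ethanol 1 and 2. EdgeR's quasi-likelihood test gave a log2 fold change of 0.24 (SE 0.09, unadjusted p = 0.0256, adjusted p = 1). The unadjusted p passed 0.05 when Control 1 (0.0943), Ethanol 1 (0.088) or Ethanol 2 (0.0783) was left out of the edgeR fit, and was 0.00554 without Ethanol 3. Stx1a made up 19.4, 22.1 and 22.3% of syntaxin counts per kilobase in Control and 25, 25.1 and 22.6% in Ethanol, a difference of 2.93 percentage points (exact permutation p = 0.1).

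Cplx3 encodes complexin 3, which binds assembled SNARE complexes (NCBI gene 501005, chr8:62379502-62386264 on the − strand of Rnor_6.0, 3392 exon bases). It had the lowest level of the 56 per kilobase, with 153, 152 and 172 counts in Control 1 to 3 and 186, 216 and 214 counts in Ethanol 1 to 3. On the CPM scale these were 2.34, 2.14 and 2.71 in Control and 2.9, 3.36 and 3.07 in Ethanol. No Ethanol library was as low as the highest Control library, and Ethanol 1 came closest to it. Its log2 fold change was the largest of the list, 0.38 (SE 0.14, unadjusted p = 0.0276 and adjusted p = 1 in edgeR's quasi-likelihood test). The unadjusted p was 0.0774 without Control 1, 0.0922 without Control 2 and 0.0874 without Ethanol 2. Its share of complexin counts per kilobase was 0.165 to 0.236% in Control and 0.242 to 0.253% in Ethanol, so that any difference in it left Cplx1 and Cplx2 with nearly all complexin transcript in both groups.

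Stx3, a syntaxin of ribbon synapses, of polarised epithelia and of postsynaptic membrane insertion, lay in the other direction (NCBI gene 81802, chr1:228137781-228195004 on the − strand of Rnor_6.0, 7608 exon bases). Its level was 52.3, 54.5 and 48 CPM in Control 1 to 3 and 45.7, 42.4 and 45.3 CPM in Ethanol 1 to 3. All 3 Ethanol libraries, Ethanol 3 included, were below the lowest Control library. EdgeR's quasi-likelihood test gave a log2 fold change of −0.21 (SE 0.07, unadjusted p = 0.0142, adjusted p = 1). Of the 6 libraries, only Ethanol 2 moved that unadjusted p past 0.05 when it was left out (0.0552). The share of Stx3 in syntaxin counts per kilobase was 3.17, 3.24 and 2.86% in Control and 2.58, 2.43 and 2.7% in Ethanol, a difference of −0.521 percentage points (exact permutation p = 0.1).

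**Figure D3:**
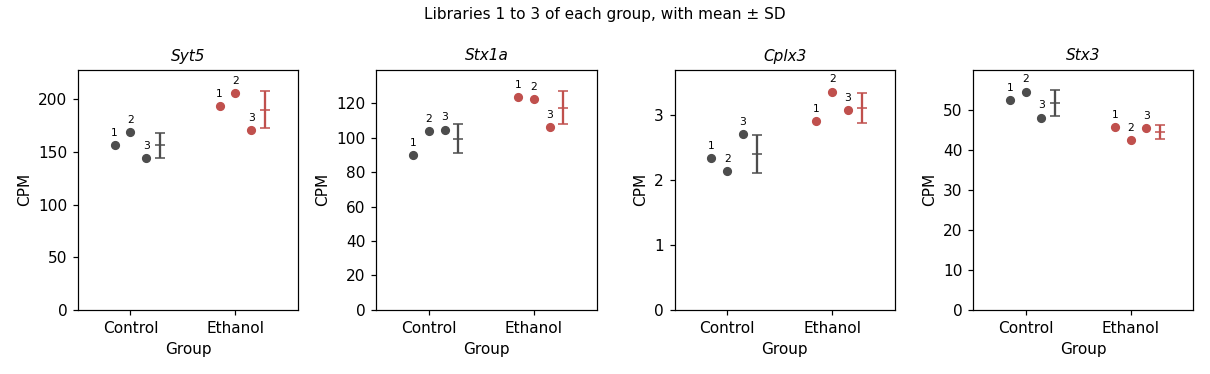
Level in CPM of Syt5, Stx1a, Cplx3 and Stx3 in each library, numbered 1 to 3 within its group, with the mean and SD of the group beside the points and each axis starting at 0. In Syt5, Stx1a and Cplx3 the red Ethanol points all lie above the grey Control points, and in Stx3 all lie below, with Ethanol 3 the closest to the Control points in Syt5 and Stx1a.

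Stx2, a syntaxin of the plasma membrane in many tissues, showed the same direction as Stx3. Its level was 38.4, 41 and 39 CPM in Control and 35, 30.1 and 38 CPM in Ethanol, where Ethanol 2 was low and Ethanol 3 was just below the lowest Control library. The log2 fold change was −0.20 (SE 0.09, unadjusted p = 0.0599 and adjusted p = 1 in edgeR's quasi-likelihood test). Its share of syntaxin counts per kilobase was 3.56 to 3.74% in Control and 2.64 to 3.47% in Ethanol (exact permutation p = 0.1). Stxbp2 had levels of 6.71, 7.11 and 7.76 CPM in Control and 6.14, 6.68 and 6.69 CPM in Ethanol, with the upper Ethanol libraries almost touching Control 1. Its log2 fold change was −0.15 (SE 0.10, unadjusted p = 0.186 in edgeR's test). Stx6, a syntaxin of the trans-Golgi network, had the tightest levels of the genes without overlap, 82.6, 85.5 and 85.5 CPM in Control and 88.6, 92.7 and 88.8 CPM in Ethanol, and a log2 fold change of 0.09 (SE 0.05, unadjusted p = 0.114 in edgeR's test). The other syntaxins, Stx4, Stx7, Stx12 and Stx16, overlapped between the groups, with log2 fold changes of −0.07 to 0.02.

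Where the RefSeq promoter table held the gene, the bases before its start were read for the genes with an unadjusted p below 0.05, so that the windows could be searched for elements bound by kinds of factor that the study examined. Windows of 250 bases were present for 44 of the 56 genes, and Syt5 and Snap25 were among the 12 without an entry. The windows are printed 5′ to 3′ on the gene's own strand, in coordinates of GRCr8, with capitals for the core of the hypoxia response element (ACGTG or GCGTG on either strand) and for the glucocorticoid receptor core (AGAACA on either strand). The Stx3 window was chr1:218110467-218110716 on the − strand, the Stx1a window chr12:27306472-27306721 on the − strand, and the Cplx3 window chr8:66906201-66906450 on the − strand.
Stx3: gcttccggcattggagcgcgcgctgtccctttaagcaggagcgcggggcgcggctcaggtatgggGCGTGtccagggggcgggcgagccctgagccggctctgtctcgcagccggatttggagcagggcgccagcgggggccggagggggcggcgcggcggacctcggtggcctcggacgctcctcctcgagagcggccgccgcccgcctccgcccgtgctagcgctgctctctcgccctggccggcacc
Stx1a: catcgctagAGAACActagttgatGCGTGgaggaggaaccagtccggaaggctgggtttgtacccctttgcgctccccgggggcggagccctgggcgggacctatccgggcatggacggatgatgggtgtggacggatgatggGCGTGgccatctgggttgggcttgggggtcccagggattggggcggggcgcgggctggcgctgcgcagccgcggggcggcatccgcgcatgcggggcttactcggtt
Cplx3: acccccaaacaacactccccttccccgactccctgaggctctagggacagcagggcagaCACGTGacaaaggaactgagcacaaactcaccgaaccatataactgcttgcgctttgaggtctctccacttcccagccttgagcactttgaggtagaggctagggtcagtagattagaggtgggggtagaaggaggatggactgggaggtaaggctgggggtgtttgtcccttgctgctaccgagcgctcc

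The Stx3 window was the richest in G and C of the 3 (76.4%), followed by Stx1a (68.4%) and Cplx3 (56.4%). The Stx3 window held 1 hypoxia core, 185 to 181 bases before the start. The Stx1a window held 2 hypoxia cores, 226 to 222 and 107 to 103 bases before the start, and 1 glucocorticoid receptor core, 241 to 236 bases before it. In the Cplx3 window the capitals mark a palindrome that holds the hypoxia core on both strands, 191 to 186 bases before the start. The hypoxia core was thus present in all 3 windows, and its part in the values after ethanol was not tested. Of the 49 windows of exocytosis genes, 28 held it (57.1%, against 36.7% of 33469 windows in the table), 4 held the glucocorticoid receptor core (8.16%, against 17.5%), and 3, those of Napa, Syn1 and Vamp1, held the cyclic AMP response element TGACGTCA (6.12%, against 1.59%). The windows of exocytosis genes were also richer in G and C, with a median of 61.2% against 51.2%, and the part of base composition in these shares was not tested. In the printed windows no marked motifs overlap apart from the 2 strands of the palindrome, and a match of letters is not a bound site.

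For the highest gene per kilobase of each family, from Snap25 to Stxbp5, the Control and Ethanol libraries overlapped. Snap25 had levels of 1787.2, 1761.8 and 1650.2 CPM in Control and 1934.0, 2139.0 and 1589.2 CPM in Ethanol, so that its highest and its lowest library were both Ethanol. Its log2 fold change was 0.12 (SE 0.12, unadjusted p = 0.345 in edgeR's test). Snap47, Snap29 and Snap23, which act in other membrane fusions or outside neurons, had log2 fold changes of 0.08, 0.01 and −0.03.

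The vesicle SNARE Vamp2 had levels of 1199.1, 1258.3 and 1159.9 CPM in Control and 1323.9, 1306.5 and 1199.4 CPM in Ethanol. Ethanol 1 and 2 were above every Control library and Ethanol 3 fell among them, and the log2 fold change was 0.08 (SE 0.08, unadjusted p = 0.361 in edgeR's test). Vamp1, its relative in motor and hindbrain neurons, had a log2 fold change of 0.01, the endosomal and lysosomal members Vamp3, Vamp4, Vamp7 and Vamp8 of −0.06 to 0.06. Stxbp5, or tomosyn, which occupies syntaxin and SNAP-25 in place of a VAMP, had levels of 167.9 to 191.8 CPM in Control and 160.2 to 188.7 CPM in Ethanol and a log2 fold change of 0.02 (SE 0.09). Stxbp3, the Munc18 protein of many non-neuronal cells, had a log2 fold change of −0.01 (SE 0.13).

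The genes of priming and of the active zone likewise overlapped between the groups. Unc13a had levels of 126.7, 153.7 and 123.5 CPM in Control and 140.2, 145.8 and 122.6 CPM in Ethanol, with the highest in a Control and the lowest in an Ethanol library (log2 fold change 0.02, SE 0.10). Unc13b and Unc13c, the other Munc13 genes, had log2 fold changes of 0.13 (SE 0.08) and 0.07 (SE 0.21). Rims1, the RIM scaffold of the active zone, had levels of 248.8, 238.1 and 271.2 CPM in Control and 312.0, 281.3 and 223.6 CPM in Ethanol, again with Ethanol libraries at both ends (log2 fold change 0.11, SE 0.12, unadjusted p = 0.406 in edgeR's test). Rims2, Rims3 and Rims4 had log2 fold changes of 0.01, 0.11 and 0.10. Among the complexins, Cplx2 had levels of 452.7 to 472.5 CPM in Control and 463.4 to 522.8 CPM in Ethanol (log2 fold change 0.07, SE 0.08), and Cplx1 a log2 fold change of 0.03 (SE 0.12).

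Among the remaining synaptotagmins, the calcium sensor Syt1 had levels of 1077.7, 1298.1 and 1065.1 CPM in Control and 1302.4, 1393.0 and 965.1 CPM in Ethanol. Its lowest library was Ethanol 3 and its highest Ethanol 2, and the log2 fold change was 0.09 (SE 0.15). Syt11 had levels of 1008.3 to 1134.4 CPM in Control and 1017.7 to 1208.9 CPM in Ethanol (log2 fold change 0.08, SE 0.10). Syt7, the slow high-affinity calcium sensor, had a log2 fold change of 0.07 (SE 0.10), and Syt4, a synaptotagmin regulated by neuronal activity, of 0.01 (SE 0.11). Syt2 varied most of all 56 genes between libraries, with 10.9, 4.21 and 3.83 CPM in Control and 6.73, 5.94 and 8.92 CPM in Ethanol, a span of 2.85-fold whose extremes were both Control libraries (log2 fold change 0.19, SE 0.39). Without Control 1, the highest library, its log2 fold change was 0.83 (SE 0.20, unadjusted p = 0.00461 and adjusted p = 0.885 in edgeR's test), and without Control 2 or Control 3 it was −0.04 or −0.07. The other 8 synaptotagmins, Syt3, Syt6, Syt9, Syt10, Syt12, Syt13, Syt16 and Syt17, had log2 fold changes of −0.03 to 0.14.

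Synaptophysin, Syn1, Nsf and Sv2b were high in Ethanol 1 and 2 and low in Ethanol 3. Syp had levels of 1301.6, 1554.1 and 1315.0 CPM in Control and 1577.5, 1677.8 and 1260.1 CPM in Ethanol (log2 fold change 0.11, SE 0.13). Syn1 had levels of 537.4, 626.6 and 535.0 CPM in Control and 662.5, 662.4 and 515.8 CPM in Ethanol (log2 fold change 0.12, SE 0.12). Nsf had levels of 626.2, 720.7 and 598.1 CPM in Control and 755.2, 802.6 and 599.9 CPM in Ethanol (log2 fold change 0.15, SE 0.13). In each, Ethanol 1 and 2 lay above every Control library and Ethanol 3 lay with or below the lower Control libraries. Sv2b, the SV2 protein of glutamatergic forebrain neurons, showed it most widely, with 328.8, 449.4 and 381.0 CPM in Control and 517.9, 594.7 and 251.8 CPM in Ethanol. Ethanol libraries were thus at both ends of a 2.36-fold span, and the log2 fold change was 0.24 with an SE of 0.29. Sv2a had levels of 380.5 to 451.9 CPM in Control and 405.0 to 455.5 CPM in Ethanol (log2 fold change 0.06, SE 0.09). Syn2 (0.08), Syn3 (0.10), Sv2c (−0.06), Napa (0.12), Napb (0.10) and Napg (0.06) had unadjusted p-values of 0.162 to 0.714 in edgeR's test, with the log2 fold change in brackets, Sv2c being the only SV2 gene below 0 and, in contrast to Sv2b, lowest in Ethanol 2.

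**Figure D4:**
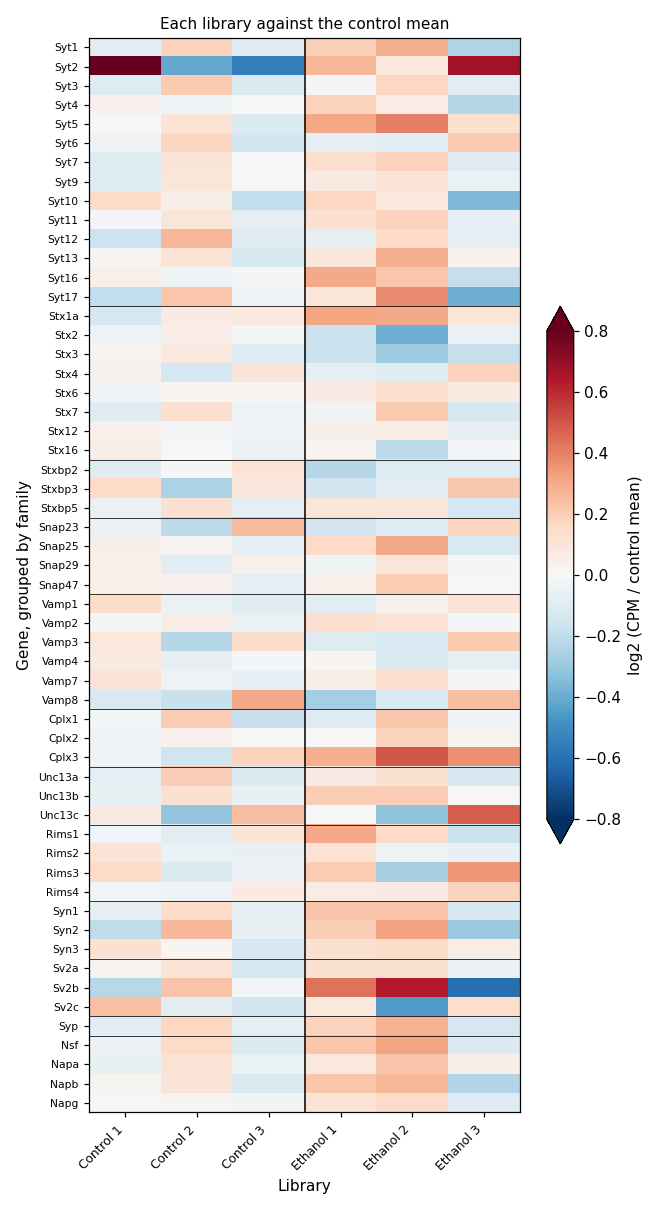
Level of each of the 56 exocytosis genes in each library against the mean of the Control libraries, as a log2 ratio from blue (lower) to red (higher), with colours saturating at 0.8 in either direction and genes grouped by family. The columns of Ethanol 1 and 2 are mostly red, with 41 of 56 genes above the Control mean in each, and that of Ethanol 3 is mostly blue, with 21 above it.

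The Ethanol libraries did not move together for these genes. The median log2 deviation of the 56 genes from the Control mean was 0.09 in Ethanol 1, 0.14 in Ethanol 2 and −0.05 in Ethanol 3. In Ethanol 1 and in Ethanol 2, 41 of the 56 (73.2%) were above the Control mean, against 49.7 and 51.5% of all genes, and in Ethanol 3 it was 21 (37.5%, against 50.3%). Ethanol 2 was the highest library of the 6 for 27 of the genes (48.2%, against 18.4% of all genes), and Ethanol 3 the lowest for 19 (33.9%, against 20.9%). The choroid plexus sums of all Ethanol libraries were below those of all Control libraries, with the highest at 461.4 CPM in Ethanol 3. Treatment and a difference in tissue content between the groups therefore cannot be told apart. Without Ethanol 3 the difference was wider, at 10.7 and 11.4 CPM in the remaining Ethanol libraries against 499.2 to 1080.3 CPM in Control. In that comparison, 12 exocytosis genes were higher at an unadjusted p below 0.05 in edgeR's quasi-likelihood test (21.4%, against 4.48% of the 18356 genes then tested) and 2 were lower (3.57%, against 4.4%). The 12 were Syt16 (0.26), Syt5 (0.35), Sv2b (0.53), Stx1a (0.31), Napb (0.24), Rims1 (0.23), Snap25 (0.23), Nsf (0.27), Syn1 (0.23), Cplx3 (0.39), Napg (0.13) and Unc13b (0.19), with the log2 fold change in brackets, and the 2 were Stx2 (−0.28) and Stx3 (−0.23). Even then none passed an adjusted p of 0.2, the smallest being 0.286 in edgeR's test, while 0.452% of all genes did. When Ethanol 2 was left out instead, 1 exocytosis gene was higher, Rims3, named after its value was seen (1.79%, against 1.41% of the 18414 genes then tested), and none was lower (against 1.74%) at an unadjusted p below 0.05 in edgeR's test, so the number of genes at that level depended on which pool of 2 rats was included.

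Within each group, the place of Control 2 and of Ethanol 3 was set beside that of cell type markers. In 23 of the 56 (41.1%, against 20.6% of all genes), Control 2 was the highest Control library and Ethanol 3 the lowest Ethanol library. They included Syp, Syn1, Syn2, Syt1, Syt5, Syt11, Vamp2, Nsf, Napb, Sv2a, Sv2b and Unc13a. The opposite order, Control 2 lowest and Ethanol 3 highest, was found in 8 (14.3%, against 21.1%), namely Rims3, Rims4, Snap23, Stx4, Stxbp3, Unc13c, Vamp3 and Vamp8. Of these, Snap23, Stx4, Stxbp3, Vamp3 and Vamp8 are known from membrane fusion in many non-neuronal cells. Rims3, Rims4 and Unc13c are RIM and Munc13 genes of the neuronal release site. These 2 orders were noticed in the data and are given with no test, and they fix where the chosen genes stand in Control 2 and Ethanol 3. The glutamatergic markers summed to 475.6, 875.3 and 632.6 CPM in Control 1 to 3 and 765.4, 1003.1 and 479.5 CPM in Ethanol 1 to 3, with Control 2 highest in its group and Ethanol 3 lowest in its own. The oligodendrocyte markers summed to 7936.4, 3278.0 and 5530.6 CPM in Control and 4063.0, 5649.7 and 9222.3 CPM in Ethanol, with Control 2 lowest and Ethanol 3 highest. The astrocyte markers, at 3816.7, 3713.8 and 4450.7 CPM in Control and 3832.9, 3839.8 and 5034.1 CPM in Ethanol, were also lowest in Control 2 and highest in Ethanol 3. The same order was found in the hypothalamic markers, at 107.6, 9.47 and 83.2 CPM in Control and 22.3, 13.4 and 314.6 CPM in Ethanol. Thalamic and habenular markers had it too, at 268.0, 204.5 and 223.3 CPM in Control and 280.6, 222.0 and 290.4 CPM in Ethanol. The markers of striatal-type GABA neurons, at 808.2, 649.7 and 621.3 CPM in Control and 720.6, 638.0 and 717.4 CPM in Ethanol, had neither order, nor did the microglial markers, which were highest in Ethanol 1. Neither order was found in the endothelial or choroid plexus markers. At an unadjusted p below 0.05 in edgeR's test, 1 of the 4 glutamatergic markers was higher and 3 of the 5 choroid plexus markers were lower after ethanol. The part of these cell types in the differences between Ethanol and Control was not tested.

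**Figure D5:**
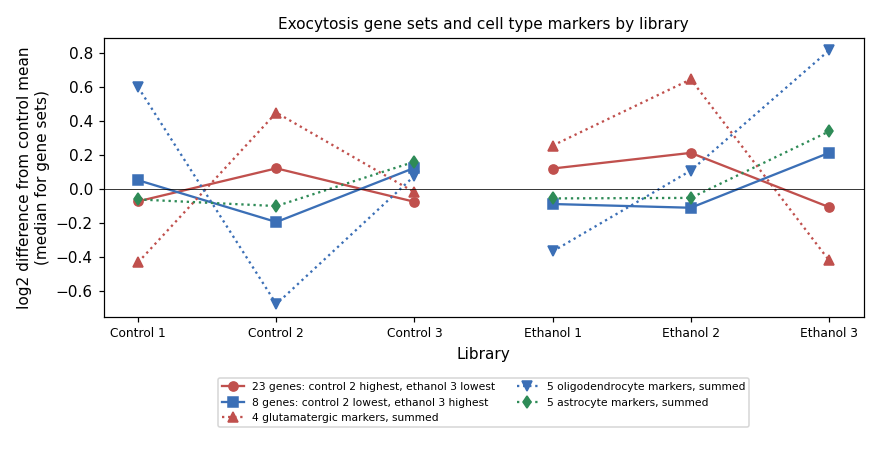
Log2 difference of each library from the Control mean for the 23 exocytosis genes with Control 2 highest and Ethanol 3 lowest in its group and the 8 with the opposite order (medians, solid lines), and for summed markers of glutamatergic neurons, oligodendrocytes and astrocytes (dotted lines). Lines only join libraries of a group, which have no order. The places of the solid lines in Control 2 and Ethanol 3 follow from how the genes were chosen (medians of −0.106 for the 23 and 0.213 for the 8 in Ethanol 3). The dotted lines are only some of the marker lists, drawn once the orders had been noticed. Of the lists not drawn, hypothalamic and thalamic-habenular markers shared the order of the oligodendrocyte markers, and the rest had neither order.

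Other genes of the presynapse, 35 of them from active zone scaffolds, vesicle transporters and endocytosis, were read from the same fit. None passed an adjusted p of 0.2 in edgeR's quasi-likelihood test, and none did so in DESeq2, limma-voom or the likelihood ratio test. At an unadjusted p below 0.05, 1 of the 35 was higher (against 1.57% of all genes) and 0 were lower (against 2.57%). The 1 was Doc2a, a calcium sensor of spontaneous and asynchronous release, with levels of 64.3, 60.7 and 61.8 CPM in Control and 74.9, 66.5 and 66.8 CPM in Ethanol, all of the latter above all of the former. Its log2 fold change was 0.16 (SE 0.07, unadjusted p = 0.0447 in edgeR's test), and 1028 of its exon bases face Ino80e on the opposite strand. Of the 35 log2 fold changes, 28 were above 0 (80%), from −0.19 to 0.24 with a median of 0.071, close to the values of the exocytosis genes. Their library medians also ran alike, at 0.13, 0.15 and −0.04 above the Control mean in Ethanol 1 to 3.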

How the data were processed

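The authors prepared stranded mRNA libraries (TruSeq, single-end reads of 100 nt on 3 lanes) and, per the file headers and their processing notes, aligned quality-trimmed reads with STAR 2.7.0f and counted them per gene over exons of the Rnor_6.0 annotation with featureCounts (Subread 1.6.3), with strand (setting 2) and without multi-mapping reads. The authors deposited raw counts for 38445 genes, which are the unit used here. Genes were named by NCBI gene ID from a RefSeq table of GRCr8, which gave symbols for 29322 of them and for all 56 listed genes. The 6 libraries had 62576504 to 70755739 counts. Ethanol and Control were compared with edgeR 4.0.16 in R 4.3.3, using TMM scaling, the default filter on low counts (10 in a library, 15 in all), the quasi-likelihood F test and Benjamini-Hochberg adjustment over 18141 genes, with the study's threshold of 0.2. SE was taken from the fold change and the F statistic. The fit was tested on simulated counts. Single levels and family shares were compared with exact 2-sided permutation tests. P-values measure the spread between pools of rats.

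The members and lists were chosen with earlier results of these data known, and 1 marker of the glutamatergic list is not reported here. Full values were given for members with an unadjusted p below 0.05, members whose groups did not overlap with a log2 fold change beyond 0.1 in either direction, the highest member per kilobase of each family, Syt5, and members whose libraries spanned more than 2-fold. Values were added for Stx6 and Syt1 after these had been seen. Alternatives were scaling by RLE size factors or library size alone, no filter, DESeq2 1.42.0, the likelihood ratio test, limma-voom (limma 3.58.1), a replicate block, and leaving out each library.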

Additional observations from a re-analysis of the deposited data

How the results depend on the processing

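No exocytosis gene passed an adjusted p of 0.2 under any of the 13 alternatives. Over all genes, 75 passed in DESeq2, 77 in the likelihood ratio test and 0 to 83 when 1 library was left out (4 without Ethanol 1, 83 without Ethanol 3), and genes at an unadjusted p below 0.05 ran from 570 to 1629 on leaving out a library. On leaving out a library, exocytosis genes at that level ran from 1 to 12 of 56 higher and from 0 to 2 lower. Both low ends were without Ethanol 2, where 1.41% of all genes were higher and 1.74% lower. Both high ends were without Ethanol 3, where 4.48% of all genes were higher and 4.4% lower. Without the filter on low counts 2 were lower, and 1011 of 27728 genes reached that level in either direction. Other presynaptic genes at that level numbered 0 of 35 in DESeq2, the likelihood ratio test, limma-voom and with library size alone. With the replicate block they numbered 3, where 1015 of 18141 genes reached that level. They numbered 0 to 5 on leaving out a library. There were 5 without Ethanol 3 (beside 1629 of 18356 genes), 2 without Control 2 (689 of 18391) or Ethanol 2 (581 of 18414), and 0 without Control 3 or Ethanol 1. With library size alone, the log2 fold changes of Stxbp5 (−0.007), Stx12 (−0.013) and Unc13a (−0.011) turned negative. On leaving out a library, log2 fold changes ran from −0.001 to 0.232 for Rims1, −0.003 to 0.120 for Sv2a, −0.018 to 0.096 for Stxbp5, −0.010 to 0.055 for Stx12, −0.041 to 0.124 for Unc13a, −0.005 to 0.527 for Sv2b and −0.069 to 0.833 for Syt2. In these 7 genes 18 of 260 values for 20 named genes turned sign, and the 13 others kept theirs. The cause of these shifts was not tested. The list's median log2 fold change stayed above 0, from 0.018 without Ethanol 2 to 0.10 without Control 2.

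Replicate numbers did not mark paired samples in the labels. Deviations of same-numbered libraries from their group means correlated at 0.026, 0.388 and 0.211 over 14241 genes above 1 CPM, and Control 1 went best with Ethanol 3 (0.305). With the replicate block, 0 genes passed the adjusted threshold and 1015 of 18141 had an unadjusted p below 0.05. Among them were 4 of the 56 exocytosis genes that were higher and 1 that was lower. Counts limit Cplx3 most among the exocytosis genes, with 152 to 216 counts a library.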
